A study of Homo sapiens with 2 samples.

Results

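The 37 genes of the human mitochondrial genome were examined in CLIP-seq libraries of hTrmt13, a tRNA ribose methyltransferase related to Trm13 of yeast. They were chosen by chromosome alone, as every listed feature on chrM, and make up 37 of 741078 listed features. By RNA type they are 22 tRNAs, 2 rRNAs and 13 protein-coding genes. CLIP-seq sequences RNA that is isolated with a protein by an antibody after crosslinking. The single group had 2 replicates of MDA-MB-231, a cell line long in culture that derives from a human breast carcinoma, with no treatment or genotype named in the labels. No input or antibody control library was analysed here, so each level is an amount recovered and not an enrichment. Every library has a table for each of its mates (R1 and R2), and levels are given as CPM, counts scaled to a common table total of 1e6, from R1 unless R2 is named.

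Mitochondrial DNA is transcribed from both strands into long precursors that cover nearly the whole circle. The tRNA genes lie between most of the rRNA and protein-coding genes, and excision of the tRNAs by the mitochondrial RNase P complex and by ELAC2 releases the RNAs on either side. The 12S and 16S rRNAs (MT-RNR1 and MT-RNR2) are part of the mitochondrial ribosome, in which the tRNAs decode the mRNAs. The mRNAs encode subunits of respiratory complexes I, III and IV and of the ATP synthase. The plus strand of the reference carries most genes, among them both rRNAs, while the minus strand carries 8 tRNAs and the mRNA MT-ND6.

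Replicate 1 had 27907799 counts in its R1 table and replicate 2 had 20590398, of which 499807 and 390981 fell on the mitochondrial genes. The R2 tables held 11246823 and 8793089 counts, of which 211072 and 168681 did. The lowest count of any of the 37 genes in any table was 97, so all passed a minimum mean count of 10 in R1. Nothing in the labels ties either replicate to its own culture, so an SD may hold technical spread only. Among markers of the cell line, VIM stood at 24.4 ± 15.1 CPM (SD, n = 2). The mesenchymal markers CAV1, AXL and CD44 lay between 0.385 and 0.937 CPM, within the range of 0.0971 to 1.96 CPM of the epithelial and luminal markers PGR, ESR1, KRT8, EPCAM and CDH1. Of the markers of this line, VIM alone thus stood above the epithelial set. These are amounts of RNA recovered and not expression levels.

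The tRNAs that lead or trail the recovery are shown by their gene sequences, from GENCODE release 29 (GRCh38) by gene identifier, 5′ to 3′, without the CCA end that is added after transcription. Positions are those the tables list, which are the same for all 37 genes in that release. Capitals mark the anticodon.
MT-TS2 (serine, AGY codons, chrM:12207-12265, plus strand): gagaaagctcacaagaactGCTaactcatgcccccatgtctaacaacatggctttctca
MT-TI (isoleucine, chrM:4263-4331, plus strand): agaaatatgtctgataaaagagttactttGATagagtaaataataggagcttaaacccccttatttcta
MT-TF (phenylalanine, chrM:577-647, plus strand): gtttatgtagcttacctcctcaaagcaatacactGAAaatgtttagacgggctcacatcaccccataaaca
MT-TQ (glutamine, chrM:4329-4400, minus strand): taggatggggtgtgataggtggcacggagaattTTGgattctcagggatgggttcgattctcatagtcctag
MT-TE (glutamate, chrM:14674-14742, minus strand): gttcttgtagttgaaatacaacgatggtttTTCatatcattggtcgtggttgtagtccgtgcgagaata
MT-TY (tyrosine, chrM:5826-5891, minus strand): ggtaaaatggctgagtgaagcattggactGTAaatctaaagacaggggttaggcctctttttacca
MT-TV (valine, chrM:1602-1670, plus strand): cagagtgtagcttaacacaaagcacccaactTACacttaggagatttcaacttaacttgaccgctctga
MT-TA (alanine, chrM:5587-5655, minus strand): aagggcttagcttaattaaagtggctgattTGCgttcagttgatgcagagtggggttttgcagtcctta
MT-TS2, MT-TI, MT-TF and MT-TQ had the highest R1 levels per kilobase, MT-TE the highest in R2, MT-TY the largest R1 excess of any tRNA, and MT-TV and MT-TA the lowest levels in both mates. MT-TS2, which lacks the D arm of other tRNAs, is the shortest of the 22 at 59 bases. The longest is MT-TL1 at 75 bases.

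Mitochondrial tRNAs made up most of the mitochondrial counts. They took 85.4% of them in replicate 1 and 82.4% in replicate 2. The rRNAs took 10.8% and 11.6%, and the mRNAs took 3.76% and 6.07%. Of the summed counts of all listed features, the 37 genes took 1.79% in replicate 1 (exact Clopper-Pearson 95% interval 1.786 to 1.796%). In replicate 2 they took 1.90% (1.893 to 1.905%). Listed features can overlap, so a read can enter that sum more than 1 time. Without 154 features that overlap a cytosolic tRNA, piRNA features being kept, the mean share over the replicates was 2.59%. At most, the intervals cover counting error, not the spread between replicates. Reads amplified by PCR need not be independent molecules, so the intervals may be too narrow even for counting error. Whether molecular identifiers were used is not given in the sources used here. Per kilobase, the median tRNA stood at 6932 and 6136 CPM per kilobase in the replicates and the median mRNA at 48.8 and 77.5 CPM per kilobase. The tRNA median was therefore 142-fold and 79.2-fold the mRNA median, a difference far larger than the spread between replicates. In R2 it was 30.3-fold and 14.4-fold. These folds rest in part on the division by length, since the tRNAs are much shorter than the mRNAs. Without it, the median tRNA stood at 466 and 421 CPM and the median mRNA at 42.6 and 70.5 CPM. In R2 these medians were 257 and 187 CPM for tRNAs and 82.5 and 145 CPM for mRNAs.

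**Figure D1:**
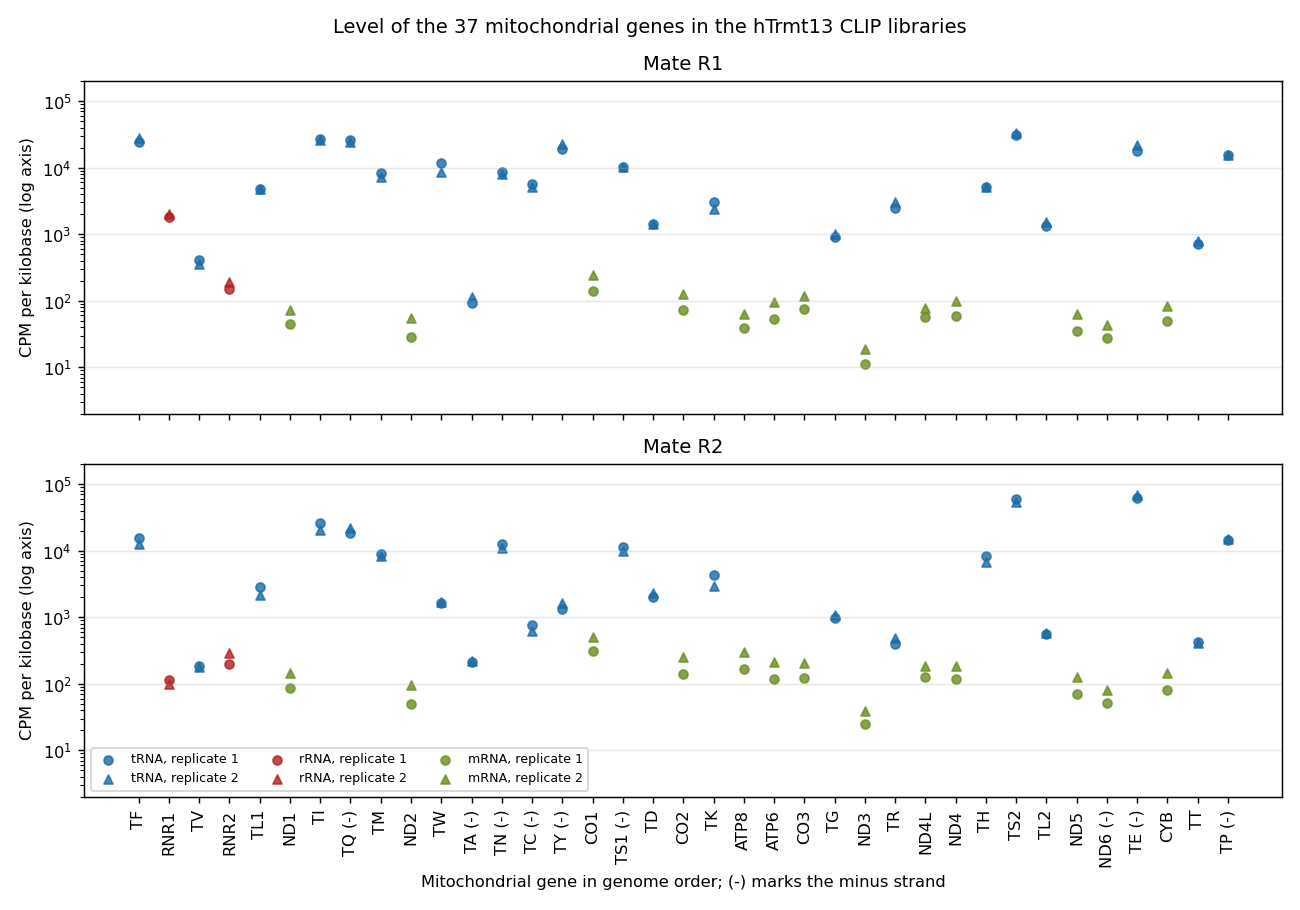
Each point is the level of 1 mitochondrial gene in 1 library, in CPM per kilobase on a log axis, with genes in genome order, R1 above R2, circles for replicate 1 and triangles for replicate 2. In R1 the tRNAs range from 103 to 31866 CPM per kilobase (means of both replicates) and the mRNAs from 15.1 to 189 CPM per kilobase.

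Among the 22 tRNAs the R1 counts were uneven. Of the mitochondrial tRNA counts of replicates 1 and 2, the 4 highest tRNAs took 47.4% and 47.8%, and the 5 lowest took 1.55% and 1.61%. MT-TS2 stood at 30447 and 33284 CPM per kilobase in replicates 1 and 2. MT-TI stood at 27061 and 25872 CPM per kilobase. These were followed by MT-TF at 24587 and 27512 CPM per kilobase and MT-TQ at 25655 and 24625 CPM per kilobase, so the values of MT-TF overlapped those of both MT-TI and MT-TQ. Per kilobase, MT-TS2 lay above all of them in both libraries. By counts its 50133 in replicate 1 were below the 52109 of MT-TI and the 51550 of MT-TQ. In replicate 2 its 40435 counts were the highest.

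A second tier held MT-TY (tyrosine) at 19245 and 22722 CPM per kilobase and MT-TE (glutamate) at 17987 and 21585 CPM per kilobase, with overlapping values. MT-TP (proline) followed with 15344 and 15216 CPM per kilobase. MT-TS1 (serine, UCN codons) and MT-TW (tryptophan) had means of 10257 and 10241 CPM per kilobase and overlapping values. MT-TN (asparagine), MT-TM (methionine), MT-TC (cysteine), MT-TH (histidine) and MT-TL1 (leucine, UUR codons) had means from 8307 down to 4755 CPM per kilobase. MT-TR (arginine), MT-TK (lysine), MT-TD (aspartate) and MT-TL2 (leucine, CUN codons) had means between 2761 and 1425 CPM per kilobase. Of the 21 neighbouring pairs in this order, 13 did not overlap between the genes and 8 did.

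The 4 lowest tRNAs served glycine, threonine, valine and alanine. MT-TG had 1707 and 1407 R1 counts, MT-TT 1309 and 1087, MT-TV 777 and 515, and MT-TA 181 and 160. For MT-TA this is 6.49 CPM in replicate 1 (95% interval 5.575 to 7.502 CPM) and 7.77 CPM in replicate 2 (6.61 to 9.07 CPM). The highest tRNA count was 288-fold the lowest in replicate 1 and 253-fold in replicate 2. MT-TA and MT-TV were also the 2 lowest in R2, where MT-TV had 143 and 107 counts and MT-TA 165 and 133.

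The order held between replicates better than between mates. Over the 22 tRNAs, Spearman's rho of the counts was 0.984 between the R1 tables and 0.995 between the R2 tables, against 0.837 between R1 and R2 of either library. Points of 1 library share its depth, and these values are descriptions over genes and not tests. In R2 the lead passed to MT-TE, with 61784 and 68209 CPM per kilobase, ahead of MT-TS2 with 59881 and 54039 CPM per kilobase.

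By coding strand, the 14 plus-strand tRNAs took 53.0% ± 0.78 and the 8 minus-strand tRNAs 47.0% ± 0.78 (SD, n = 2) of mitochondrial tRNA counts, while making up 63.6% and 36.4% of the genes. The median plus-strand tRNA stood at 3911 ± 39.4 CPM per kilobase and the median minus-strand tRNA at 12768 ± 67.9 CPM per kilobase (SD, n = 2 each). Above the median of the 22 lay 5 of the 14 plus-strand tRNAs and 6 of the 8 minus-strand tRNAs. In R2 the plus-strand share was 50.2% in replicate 1 and 45.1% in replicate 2. Without the 4 tRNAs whose listed span overlaps another (MT-TI, MT-TQ, MT-TC and MT-TY), the plus strand took 63.1% ± 0.691 (SD, n = 2) of the remaining R1 counts and made up 13 of the 18 remaining genes (72.2%). The tables do not record the strand of a read.

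Neighbours within a tRNA cluster could differ widely. In the W-A-N-C-Y cluster, which holds MT-TW and 4 minus-strand tRNAs around the origin of light-strand replication, the level of MT-TY was 194-fold that of MT-TA (mean CPM over the replicates). MT-TA had 6.49 and 7.77 CPM, next to MT-TN with 619 and 593 CPM at a distance of 1 base. In the H-S2-L2 cluster MT-TS2 had 1796 and 1964 CPM, against 94.96 and 107 CPM for MT-TL2, which adjoins it with no base between. The I-Q-M cluster had the highest sum in R1, with 4277 and 4047 CPM, against 3063 and 3029 CPM for W-A-N-C-Y, and the smallest range within it, 3.47-fold. The near-equal R1 counts of MT-TI and MT-TQ, described below, enter that sum once each. With the higher of the pair only, a setting chosen after the counts were seen, it was 2430.1 and 2274 CPM, below W-A-N-C-Y. In R2, H-S2-L2 had the highest sum, with 4144 and 3689 CPM, against 3707 and 3552 CPM for I-Q-M. MT-TS1 and MT-TD, on opposite strands, differed 7.26-fold, and MT-TP and MT-TT 20.8-fold.

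Yeast Trm13 acts on position 4 of the cytosolic glycine, histidine and proline tRNAs, so the mitochondrial tRNAs of these amino acids are shown with base 4 of the gene sequence, counted from its 5′ end, and the anticodon in capitals. Whether hTrmt13 acts on them was not measured.
MT-TG (glycine, chrM:9991-10058, plus strand): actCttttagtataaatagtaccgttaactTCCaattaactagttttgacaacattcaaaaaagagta
MT-TH (histidine, chrM:12138-12206, plus strand): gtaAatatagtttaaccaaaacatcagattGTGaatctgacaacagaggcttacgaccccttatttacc
MT-TP (proline, chrM:15956-16023, minus strand): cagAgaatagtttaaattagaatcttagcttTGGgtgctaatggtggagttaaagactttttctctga
MT-TG, MT-TH and MT-TP together took 9.43% ± 0.191 of mitochondrial tRNA counts and the other 19 took 90.6% ± 0.191 (SD, n = 2). These 3 are 13.6% of the genes, so their share of counts lay below their share of genes, and it was 9.51% ± 0.0686 (SD, n = 2) in R2. They differed among themselves: MT-TP had 1043 and 1035 CPM, MT-TH 359 and 351 CPM, and MT-TG 61.2 and 68.3 CPM. The values of no 2 of them overlapped. By mean level per kilobase they ranked 7, 13 and 19 of 22, with a median of 5140 CPM per kilobase against 7734 CPM per kilobase for the other 19. In R2 that order turned, with 7465 CPM per kilobase for the 3 and 2511 CPM per kilobase for the other 19.

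The rRNAs changed places between the mates. In R1 the 12S rRNA MT-RNR1 stood at 1781 and 1993 CPM per kilobase in replicates 1 and 2, above the 16S rRNA MT-RNR2 at 152 and 189 CPM per kilobase. In R2 MT-RNR1 stood at 113 and 100.02 CPM per kilobase, below MT-RNR2 at 198 and 293 CPM per kilobase. MT-RNR2 was 3.11-fold and 2.44-fold the median mRNA per kilobase in R1, and 1.68-fold and 1.59-fold in R2.

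The R1 count of MT-RNR1 was nearly that of MT-TF, the tRNA gene that ends at the base before it. MT-RNR1 had 47409 and 39145 R1 counts in replicates 1 and 2, which is 97.32% and 97.33% of the 48717 and 40220 counts of MT-TF. In R2 it had 1209 and 839 counts, which is 9.72% and 10.6% of those of MT-TF. The 3-base overlap of MT-TI and MT-TQ, on opposite strands, showed the same kind of match. MT-TI had 52109 and 36757 R1 counts and MT-TQ 51550 and 36507, so that the lower was 98.9% and 99.3% of the higher. In R2 MT-TI had 20035 and 12303 counts and MT-TQ 14914 and 13930, and the higher of the pair was not the same gene in both replicates. A read that crosses a boundary can be counted in both features. Whether the paired counts are the same reads was not tested, since the tables hold no reads. Adjoining and overlapping refer to listed positions, and the chrM sequence that reads were aligned to is not given in the sources used here.

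Most neighbours were not matched in this way. Of the 36 neighbouring pairs along the chromosome, 2 had a lower count of at least 90% of the higher in both R1 libraries, and 0 did in both R2 libraries. That limit was set after the counts were seen. MT-TS2 and MT-TL2 adjoin directly and MT-TL2 had 5.29% and 5.47% of the R1 count of MT-TS2. MT-TE and MT-ND6 adjoin on the minus strand, and MT-ND6 had 1.16% and 1.51% of the R1 count of MT-TE. MT-TY and MT-TC share 1 base, and MT-TC had 29.03% and 22.3% of the R1 count of MT-TY.

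**Figure D2:**
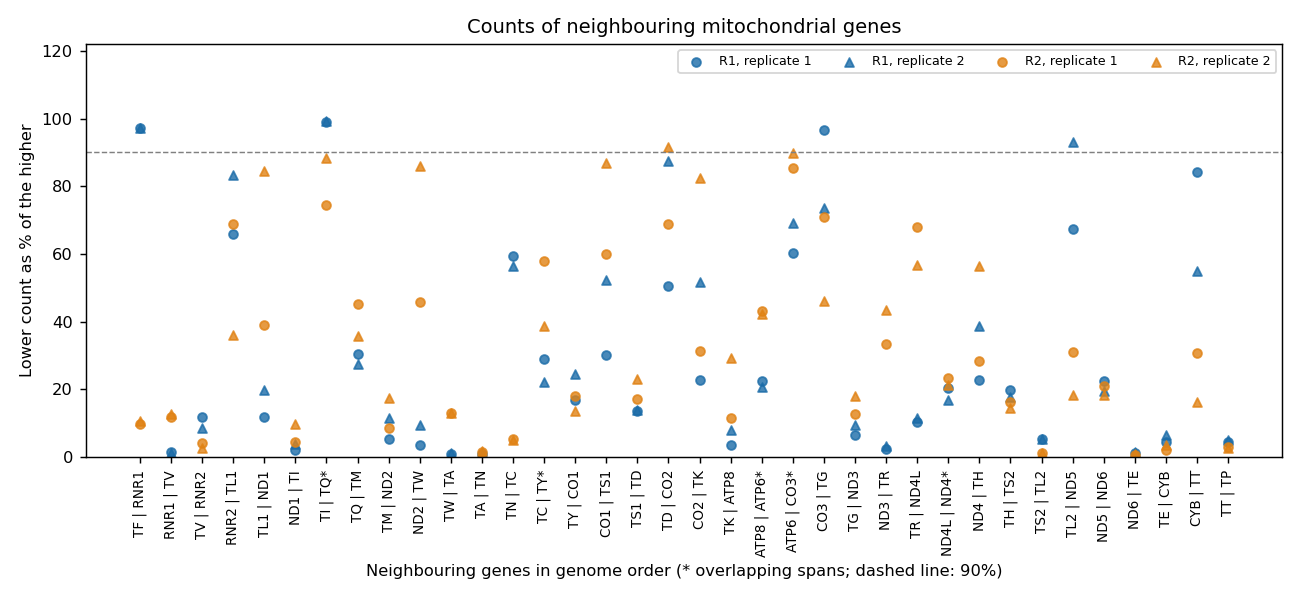
For each of the 36 pairs of neighbouring genes in genome order, points give the lower count as a percent of the higher in each table, blue for R1 and orange for R2, circles for replicate 1 and triangles for replicate 2. The pairs MT-TF and MT-RNR1 (97.3%) and MT-TI and MT-TQ (98.9% and 99.3%) are the only ones above the dashed 90% line in both R1 libraries.

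The 13 mRNAs were recovered at lower R1 levels per kilobase than every tRNA but MT-TA. MT-CO1, the catalytic subunit of complex IV, led with 139 and 240 CPM per kilobase in replicates 1 and 2, and its values lay above those of every other mRNA. The other complex IV subunits MT-CO2 and MT-CO3 had 71.8 and 125, and 75.3 and 118 CPM per kilobase. MT-CYB, of complex III, had 48.8 and 84.3 CPM per kilobase. The ATP synthase subunits MT-ATP6 and MT-ATP8, whose genes overlap by 46 bases, had 52.4 and 94.1, and 38.8 and 63.8 CPM per kilobase.

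Complex I has 7 mitochondrial subunits, and their means ran from 15.1 to 78.9 CPM per kilobase with a median of 49.5. MT-ND4 led them with 59.0 and 98.7 CPM per kilobase, and MT-ND3 was the lowest mRNA of all with 11.4 and 18.8 CPM per kilobase. MT-ND3 had 110 and 134 R1 counts. MT-ND6, the only mRNA of the minus strand, had 27.4 and 42.9 CPM per kilobase, above MT-ND3 in both libraries. Of the 12 neighbouring pairs in the order from MT-CO1 to MT-ND3, 10 had ranges over the replicates that overlapped, in R1 and in R2 alike. All 13 mRNAs were higher in replicate 2, and within the libraries 9 of the 12 R1 pairs kept their order in both, with a Spearman's rho of 0.995 between the R1 tables. The 3 R1 pairs that changed places were MT-CO2 and MT-CO3, MT-ATP6 and MT-ND4L, and MT-ND4L and MT-CYB. In R2, 7 of the 12 pairs kept their order.

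For 6 tRNAs and MT-RNR1, R1 CPM was more than 2-fold R2 CPM in both replicates. This holds for 7 of the 37 genes and for 2.06% of 18723 features with a mean R1 count of at least 10. Those features had a median log2 ratio of R1 to R2 of -1.12 in replicate 1 and -0.98 in replicate 2. The share past 2-fold among cytosolic tRNA features alone was not computed. MT-RNR1 was 15.8-fold and 19.9-fold higher in R1 than in R2, MT-TY 14.6-fold and 13.9-fold, and MT-TC 7.31-fold and 8.02-fold. MT-TW was 7.08-fold and 5.15-fold higher in R1, MT-TR 6.21-fold and 6.36-fold, MT-TL2 2.36-fold and 2.56-fold, and MT-TV 2.18-fold and 2.05-fold. MT-TY had 35447 and 30878 counts in R1 and 977 and 948 counts in R2.

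In the other direction, R2 CPM was more than 2-fold R1 CPM for 6 of the 37 genes in both replicates, where the background share is 37.1% of the features. These were MT-TE and the mRNAs MT-ATP8, MT-ATP6, MT-CO1, MT-ND3 and MT-ND4L. MT-TE had 34637 and 30666 counts in R1 and 47946 and 41384 in R2, although the R2 tables are smaller, and its R2 CPM was 3.43-fold and 3.16-fold its R1 CPM. MT-ATP8 likewise had 224 and 272 counts in R1 and 392 and 539 in R2, a ratio of 4.34-fold and 4.64-fold in CPM.

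All 13 mRNAs had a higher CPM in R2 than in R1 in both replicates. Their median log2 ratio of R1 to R2 was -1.003 in replicate 1 and -0.979 in replicate 2, beside -1.13 and -0.99 for nuclear protein-coding genes. The mitochondrial tRNAs had medians of 0.08 and 0.10, beside 0.00 and 0.15 for cytosolic tRNA features, but they ranged from -1.78 to 3.87 in replicate 1. Of the 22, 12 were higher in R1 in both replicates, 9 were higher in R2 in both, and MT-TS1 changed sign. No test was run, because the mates are 2 tables of the same library.

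**Figure D3:**
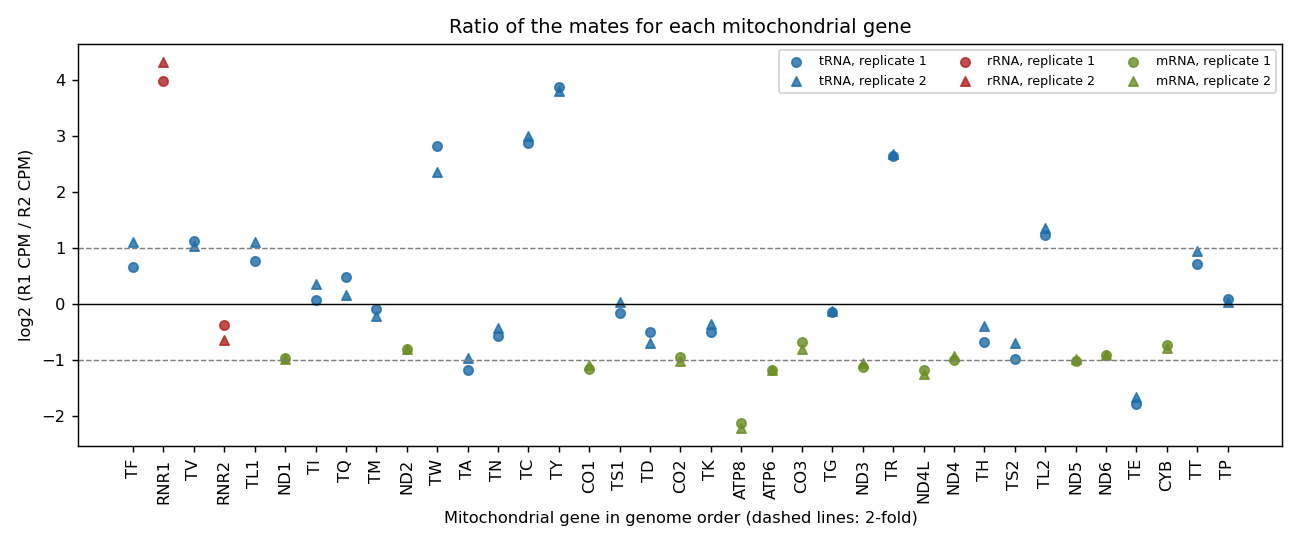
Points give the log2 ratio of R1 CPM to R2 CPM of each mitochondrial gene in genome order, circles for replicate 1 and triangles for replicate 2, with dashed lines at 2-fold. MT-RNR1, MT-TY, MT-TC, MT-TW and MT-TR stand between 2.37 and 4.32, while all 13 mRNAs lie below 0.

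The replicates differed in the balance of mitochondrial tRNA to mRNA. Relative to total counts, every one of the 13 mRNAs was higher in replicate 2, by 0.46 (MT-ND4L) to 0.94 (MT-ND2) on the log2 scale, with a median of 0.74. The 22 tRNAs had a median of -0.01, with 10 higher and 12 lower in replicate 2, from -0.43 for MT-TW to 0.31 for MT-TR. MT-RNR2 was higher by 0.31 and MT-RNR1 by 0.16, the same value as for MT-TF. None of the 37 genes was past 2-fold in either direction, while 59.7% of the 18723 features were past it toward replicate 2 and 0.171% toward replicate 1. The median of nuclear protein-coding genes was 1.11, so mitochondrial mRNAs lay between the tRNAs and the nuclear mRNAs.

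These signs depend on the scaling. With TMM factors, which centre the ratio on the bulk of all features, every value shifts by the same 1.09, and the mitochondrial medians became -1.10 for tRNAs and -0.35 for mRNAs. The nuclear protein-coding median was then 0.01 and the cytosolic tRNA median -1.10. The gap between mitochondrial mRNAs and tRNAs is the same in both scalings. In R2 scaled to totals, the medians were 0.77 for the mRNAs, with all 13 higher in replicate 2, and -0.06 for the tRNAs.

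**Figure D4:**
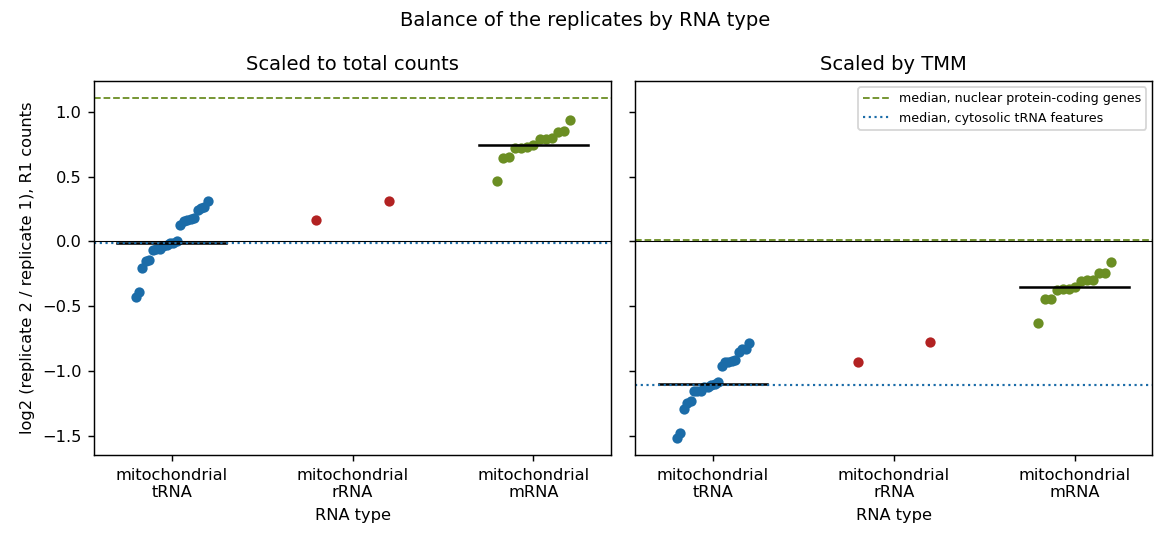
Points give the log2 ratio of replicate 2 to replicate 1 in R1 for each mitochondrial gene by RNA type, scaled to totals on the left and by TMM on the right, with bars at the medians of tRNA and mRNA. The dashed line is the median of nuclear protein-coding genes (1.11 on the left, 0.01 on the right) and the dotted line that of cytosolic tRNA features (-0.01 and -1.10).

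The mitochondrial tRNAs were set beside the cytosolic tRNAs of the same amino acid. Per gene, the median mitochondrial tRNA stood at 441 CPM and the median of the 549 cytosolic tRNA genes at 63.7 CPM. Summed, the 22 mitochondrial tRNAs held 2.65% ± 0.156 (SD, n = 2) of their own counts and those of the 549 genes together. The 549 were picked by gene name from 596 listed cytosolic tRNA features, and the rest were left out. For 0 of the 20 amino acids did the mitochondrial sum exceed the cytosolic sum, in R1 or in R2. Copies of a cytosolic tRNA share sequence, so counts of single loci are uncertain and sums by amino acid are used below.

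The share differed by amino acid over orders of magnitude. Glutamine came closest to parity: MT-TQ had 1847 and 1773 CPM, against 2446 and 2083 CPM for the cytosolic glutamine tRNAs, a mitochondrial share of 44.5% ± 2.09 (SD, n = 2). The count of MT-TQ nearly equals that of MT-TI, as given above. MT-TY held 25.8% and 31.4% of tyrosine tRNA counts in replicates 1 and 2 of R1, but 3.66% and 5.92% in R2. MT-TW held 19.7% ± 3.93 of tryptophan counts in R1 but 4.16% ± 0.073 in R2 (SD, n = 2 each). MT-TF held 11.7% ± 2.38 of phenylalanine counts in R1 and 32.05% ± 1.24 in R2 (SD, n = 2 each). Its own level was higher in R1, at 1849 ± 147 CPM, than in R2, at 1005 ± 143 CPM, as for MT-TY and MT-TW, but the cytosolic phenylalanine sum was 14223 ± 2168 CPM in R1 and 2142 ± 425 CPM in R2 (SD, n = 2 each).

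Proline and histidine stood out from glycine in this comparison too. MT-TP held 20.01% ± 2.31, MT-TH 11.2% ± 0.694 and MT-TG 1.73% ± 0.0461 of the tRNA counts of their amino acid in R1 (SD, n = 2 each). The lowest shares were those of threonine (0.073% ± 0.0108), arginine (0.0959% ± 0.0219), lysine (0.133% ± 0.025) and alanine (0.16% ± 0.00919) (SD, n = 2 each). For the first 3 the cytosolic sum was high: MT-TR had 160 and 199 CPM, against 199117 and 178031 CPM for cytosolic arginine tRNAs. For threonine the mitochondrial level was low as well: MT-TT had 46.9 and 52.8 CPM, against 71706 and 65463 CPM for cytosolic threonine tRNAs. For alanine the mitochondrial level was low: MT-TA had 6.49 and 7.77 CPM, against 4215 and 4656 CPM for cytosolic alanine tRNAs. Across the 20 amino acids, Spearman's rho between the mitochondrial and cytosolic means was -0.05, as a description over sums from the same libraries.

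**Figure D5:**
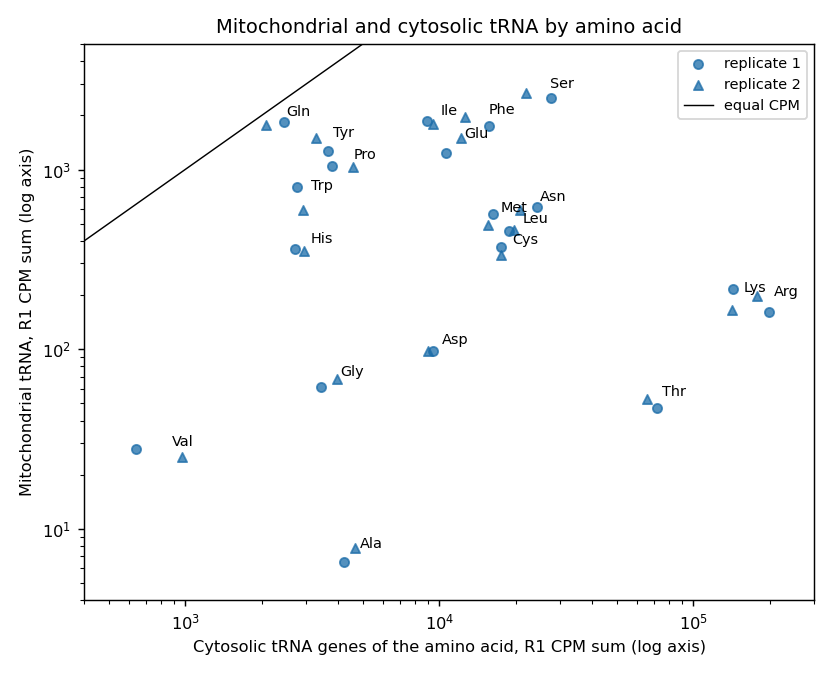
Each point is 1 amino acid in 1 library, with the summed R1 CPM of its cytosolic tRNA genes on the x axis and of its mitochondrial tRNAs on the y axis, both on log axes, circles for replicate 1 and triangles for replicate 2, and a solid line at equal CPM. All points lie below the line, glutamine nearest to it and threonine, arginine and lysine far from it.

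The nuclear genes that transcribe, process and modify mitochondrial RNA had a median level near that of protein-coding genes past a count minimum. Of 38 listed genes, 37 were found by symbol, and all 37 had a mean R1 count of at least 10, compared with 13207 of 20285 nuclear protein-coding genes. The median over the list was 2.29 CPM in replicate 1 and 5.39 CPM in replicate 2, beside 2.11 and 4.66 CPM for nuclear protein-coding genes past the same minimum. Without the minimum, the median of all 20285 was lower, at 0.896 and 2.04 CPM, while that of the list was the same. LRPPRC, which stabilizes mitochondrial mRNAs, led with 478 and 730 R1 counts, a mean of 26.3 CPM. ELAC2, the tRNA 3′ endonuclease, had 8.67 ± 4.91 CPM and NSUN2, a tRNA cytosine methyltransferase, 8.03 ± 5.07 CPM (SD, n = 2 each). Reads of nuclear copies of mitochondrial genes could be split with the originals. The 9 features named as such pseudogenes had 77 and 128 R1 counts in all, led by MTATP6P2 with 43 and 64. Copies listed under other names were not counted, so sharing of reads with nuclear copies was not measured for the tRNAs and rRNAs.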

How the data were processed

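CLIP-seq of hTrmt13 gave 2 replicate libraries of 1 group. The deposited files hold raw read counts per listed feature, 1 table per mate and library. The submitters' processing notes name the hg19 (GRCh37) build, bedtools 2.24.0 and Bowtie2 2.3.5.1. Not given in the sources used here are options, strand use, the handling of reads with several matches and the chrM sequence aligned to. The 13 repeated lines of each table, all mitochondrial protein-coding genes, were dropped, leaving 741078 features.

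CPM (counts divided by the table total), CPM per kilobase of listed length, shares with exact Clopper-Pearson 95% intervals, and log2 ratios with a pseudocount of 0.5 counts were computed. Ratios past 2-fold were counted among features with a mean R1 count of at least 10, with no test, as there was 1 group. Scalings came from totals, edgeR 4.0.16 (TMM) and DESeq2 1.42.0 size factors. The ratio step was run on simulated counts with known folds. These held no overall shift between mates and did not use the rule of both replicates, so they check the computation only. Anticodons were located by the pairing of the flanking stem. Members, lists and named genes (all 37, set groups of them, and the 3 highest of each other list) were chosen with earlier results of these data known. Software was matplotlib 3.10.9, scipy 1.17.1, pandas 2.3.3 and Python 3.11.15, with R 4.3.3 for the scalings.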

Additional observations from a re-analysis of the deposited data

How the results depend on the processing

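With 1 group of 2 replicates no test between conditions exists, and a mean of 2 values cannot move by more than 1 SD when either is left out. No paired analysis was possible because no other group exists to pair the replicates with; the mates were compared as ratios within each library. In R2, the share of the summed counts of all listed features was 1.66% for mitochondrial tRNA, 0.0484% for rRNA and 0.185% for mRNA. The R2 shares of mitochondrial counts were 87.7%, 2.55% and 9.73% in the same order. The plus-strand share of tRNA counts was 47.7% and the nuclear list median 7.64 CPM, against 3.84 CPM in R1. The sum of mates gave shares of the total of 1.58% for tRNA and 0.160% for rRNA. It gave an rRNA share of mitochondrial counts of 8.60% and a plus-strand share of 51.4%. With 154 features that overlap a cytosolic tRNA taken out of the total, all 37 genes took 2.59%, tRNA 2.18%, rRNA 0.290% and mRNA 0.128%. Features typed as piRNA were kept, so any overlap of those with a tRNA remains in that total. On counts per kilobase the shares of mitochondrial counts were 98.7% for tRNA, 0.891% for rRNA and 0.398% for mRNA. Without MT-RNR1 (chosen after seeing the data) tRNA took 93.0% and rRNA 1.59%. Without overlapping genes the plus strand took 63.1%.

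With a 1.5-fold limit, 16 of the 37 genes were higher in R2 than R1, beside 16151 of all features (86.3%), and 12 were higher in replicate 2, beside 86.9% of all features. With no count minimum 648 of all features were past 2-fold toward R1 and 49005 toward R2, and with a mean of at least 1 these were 648 and 12251. With TMM or DESeq2 size factors, 13 of the 37 were past 2-fold toward replicate 1 in each case, beside 5.01% and 5.04% of all features. With totals these were 0 of the 37 and 0.171%. The median log2 ratio of replicate 2 to 1 was -1.10 (both scalings) for tRNAs and -0.35 (both) for mRNAs, whose sign turns. Of the CPM of the 37 genes, all 37 moved by more than 1 SD in R2 (24 up, 13 down), 22 in the sum of mates (9 up, 13 down) and 11 under either scaling (all up). The cause was not tested where a setting removes no counts.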
